A study of Mus musculus with 17 samples.

Results

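Chromatin accessibility was followed across 40 genes that build the synapse: the adhesion proteins that join the presynaptic and postsynaptic membranes, and the scaffolds that hold receptors beneath the postsynaptic membrane. The genes were taken by symbol, and every accessible region within 2 kb of a gene's body was assigned to it. ATAC-seq, which reads out open chromatin as the DNA that a transposase can reach and cut, had been performed on neuronal nuclei of the nucleus accumbens, the ventral striatal region that processes reward. Peaks of the 17 libraries were merged into 281189 regions where they overlapped by 1 bp or more, and the 147420 regions found in at least 2 libraries of 1 group were kept. Of these kept regions, 2571 belonged to the 40 genes.

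The mice were labelled C57BL/6 (C57BL/6J in the study's methods) and were 52 to 54 days old, and each library pooled accumbens tissue from 3 animals. Nuclei that carried NeuN, a neuronal nuclear protein, were sorted from the pools. Cocaine animals were killed 1 h after an injection of 10 mg/kg cocaine. Controls received no cocaine, and no vehicle injection is described for them, so cocaine and injection cannot be told apart. Females were taken in diestrus, the low-estrogen stage, or in proestrus, the high-estrogen stage. The groups were DIE_Control, DIE_Cocaine, PRO_Control, PRO_Cocaine and MALE_Control with 3 libraries each, and MALE_Cocaine with 2. The stage of DIE_Cocaine library 2 came from its title, since its stage label was blank. The PRO_Cocaine libraries carry the numbers 1, 2 and 4.

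Neurexins and the receptor phosphatases Ptprd, Ptprs and Ptprf sit on the presynaptic side and bind postsynaptic partners such as neuroligins and leucine-rich repeat proteins of the Lrrtm and Flrt families. Contactins and their Cntnap partners, the SynCAM proteins (Cadm genes), latrophilins (Adgrl genes) and teneurins (Tenm genes) form further bridges across the cleft. Beneath the excitatory synapse, Dlg, Dlgap, Shank and Homer proteins link glutamate receptors to the cytoskeleton, and gephyrin (Gphn) anchors glycine and GABA-A receptors at inhibitory synapses. Many of these genes are very long, and medium spiny neurons, the main cells of the accumbens, receive the excitatory and dopaminergic input on which cocaine acts.

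Several regions that were higher after cocaine in proestrus or over all strata held the 7-base motif of AP-1. This factor is the Fos and Jun dimer that neuronal activity induces. In males the motif was more frequent among lowered than among raised regions, as given further on. The stretches below come from some of the regions that rose or were gained and held the motif. Motif regions gained in diestrus or lowered in males are not printed. Each stretch shows the motif in capitals within 40 bases on each side, on the plus strand of mm10. The first 4 lay in introns and were higher after cocaine in proestrus, the fifth was higher over all strata (diestrus, proestrus and males fitted together), and the last 3 were called in every PRO_Cocaine library and in no PRO_Control library.
Ptprd, chr4:76386113-76386199: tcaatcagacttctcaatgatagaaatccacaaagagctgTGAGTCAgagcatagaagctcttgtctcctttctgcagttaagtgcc
Cntnap2, chr6:46717917-46718003: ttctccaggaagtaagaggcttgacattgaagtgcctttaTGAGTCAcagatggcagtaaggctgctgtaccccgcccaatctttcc
Cntnap5a, chr1:115827236-115827322: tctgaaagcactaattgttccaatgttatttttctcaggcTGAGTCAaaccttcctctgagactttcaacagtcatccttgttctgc
Lrrtm3, chr10:64049303-64049389: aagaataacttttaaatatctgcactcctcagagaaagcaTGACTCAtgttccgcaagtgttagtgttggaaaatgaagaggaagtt
Cntnap5a, chr1:115745714-115745800: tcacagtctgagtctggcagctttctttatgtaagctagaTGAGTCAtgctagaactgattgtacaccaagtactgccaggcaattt
Lrrtm4, chr6:80619724-80619810: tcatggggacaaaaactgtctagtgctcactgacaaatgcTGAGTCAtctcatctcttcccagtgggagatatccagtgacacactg
Cntn1, chr15:92318401-92318487: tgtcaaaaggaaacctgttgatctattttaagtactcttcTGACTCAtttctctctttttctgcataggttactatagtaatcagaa
Cntnap2, chr6:45571558-45571644: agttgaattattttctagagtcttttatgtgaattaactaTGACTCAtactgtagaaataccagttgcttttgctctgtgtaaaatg
The search covered TGACTCA and TGAGTCA, which are each other's reverse complement, within 100 bp of the strongest summit. These letters were found in 10.1% of all kept regions and in 9.72% of the members' intragenic regions. A match describes the sequence and shows no binding.

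The 17 libraries held 75458 to 157005 peaks each, and the smallest numbers belonged to the MALE_Cocaine libraries (75458 and 87707). Between 765 and 1706 of the members' regions were called per library, with a median summit pileup of 26 to 31 reads, for which counting error alone is 17.96% to 19.61%. All 4 neuronal marker genes and all 8 markers of striatal projection neurons had a peak at their gene start in every library. No library had one at 2 of 4 astrocyte, 3 of 4 microglial or any of 3 endothelial markers, although Gfap had one in 16 libraries and the oligodendrocyte gene Mbp in 17. DIE_Cocaine library 1 was no closer to its own group than to the controls in its calls over the members' regions. Its Jaccard index (shared calls over all calls) was 0.613, 0.666 and 0.658 with DIE_Control libraries 1, 2 and 3. With DIE_Cocaine libraries 2 and 3 it was 0.620 and 0.534, and these 2 shared 0.625 with each other. The index also depends on the number of calls, which was 1555 in DIE_Cocaine library 1 and 1026 in DIE_Cocaine library 3. PRO_Cocaine library 2 shared 0.600 and 0.605 with the other PRO_Cocaine libraries, which shared 0.707 with each other, and 0.570 to 0.588 with the PRO_Control libraries. Counts that rest on these libraries are given with and without them. The sex labels were checked at gene starts. All 5 male libraries had a peak within 1 kb of a start of the Y-linked genes Uty (fold enrichment 5.35 to 9.44), Ddx3y (4.26 to 5.65) and Eif2s3y (6.74 to 9.18) and none at Xist, the RNA that silences 1 X chromosome in females. All 12 female libraries had a peak at Xist (3.57 to 6.89) and none at the 3 Y-linked genes. The 6 to 12 Y peaks of the female libraries all lay at the distal end of the chromosome. The MALE_Control libraries had 10, 12 and 13 Y peaks and the MALE_Cocaine libraries 25 and 26.

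Promoters of the synaptic genes were open throughout, while most of their regions were intronic and variable between libraries. The summit lay in an intron in 2476 of the 2571 regions (96.3%). Of the 2571 regions, 76 lay within 1 kb of an annotated transcript start (promoter), 2480 within a gene body (intragenic) and 15 in the flanking 2 kb. Of the promoter regions, 59 (77.6%) were called in all 17 libraries, against 405 (16.3%) of the intragenic regions. Over all protein-coding genes the shares were 72.2% and 19.1%. Member promoter regions had a median width of 4191.5 bp, against 2079 bp for promoter regions of all protein-coding genes, so the summit of a merged promoter region could lie several kb from the start.

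A promoter region was called in all 17 libraries for 39 of the 40 genes. The exception was Homer2, an adaptor between group I metabotropic glutamate receptors and Shank proteins, whose promoter region at chr7:81705891-81707194 was called in 15 libraries and missing in 1 DIE_Cocaine and 1 PRO_Cocaine library. Tenm4 and Shank2 had no peak at the 5′ end of their longest annotated extent in any library, and both were open in all 17 libraries at other transcript starts. For Tenm4, which codes for a teneurin, these were chr7:96209612-96215355 and chr7:96521792-96522652. For Shank2, the constitutively open starts were chr7:144174087-144177609 and chr7:144283085-144289303. None of the 76 member promoter regions held the full palindromic cyclic AMP response element, which reads the same on both strands. The search covered 100 bp on each side of the strongest summit, a small part of a typical merged promoter region. Over all protein-coding genes, 359 of 15983 promoter regions (2.25%) held the element. That share would give few matches among 76 regions, so no difference can be read from these counts.

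Synaptic genes carried more accessible regions for their length than the median of other protein-coding genes, which is given as a description. Members of 500 kb or more had a median of 11.9 intragenic regions per 100 kb (16 genes), against 5.92 for 213 other genes of that length. Between 100 and 500 kb the medians were 13.2 (11 genes) and 6.95 (2240 genes). These 16 longest genes held 79.3% of the members' regions. Dlg2, which codes for the scaffold PSD-93, had the most regions with 294 over 1973 kb, and Nrxn3 followed with 243 over 1612 kb. Density differed widely within the adhesion genes: Lrrtm3 held 32.1 intragenic regions per 100 kb and Cadm1 28.1, whereas Ptprd, Lrrtm4, Cntnap2, Cntn5 and Cntnap4 held 3.52 to 5.42. By role, the median number of regions per 100 kb, promoter and flank regions included, was 30.7 for postsynaptic partners and 15.04 for presynaptic hubs. It was 14.7 for excitatory scaffolds and 6.14 for contactins and Cntnap genes. The median gene lengths of these roles were 56.8, 125, 159 and 903 kb in that order, and Lrrtm2 reached 29.9 with only 3 regions. Lrrtm1, Lrrtm2, Lrrtm3 and Flrt3 lie inside the genes Ctnna2, Ctnna1, Ctnna3 and Macrod2, so their regions cannot be told apart from regions of these hosts.

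By role, the presynaptic hubs were Nrxn3 with 243 regions, Ptprd with 124, Nrxn2 with 24, Ptprs with 14 and Ptprf with 9. Among postsynaptic partners, Nlgn1 had 136 regions, Lrrtm3 53, Lrrtm4 42, Flrt2 19 and Flrt3 8, while Nlgn2 and Lrrtm1 had 6 each and Lrrtm2 had 3. The contactin family comprised Cntnap2 with 114 regions, Cntn4 with 95, Cntnap5a with 65, Cntn5 with 58, Cntn1 with 41, Cntn6 with 23 and Cntnap4 with 12. These counts show how far a role rests on its longest genes. The SynCAM genes Cadm2, Cadm1 and Cadm3 had 140, 94 and 7 regions. Of the latrophilins and teneurins, Tenm2 had 156 regions, Adgrl3 131, Tenm4 119, Tenm3 59, Adgrl2 34 and Adgrl1 9. Among excitatory scaffolds, Dlg2 had 294 regions, Dlgap2 164, Dlgap1 100, Shank2 61, Dlg1 33, Dlgap3 13, Shank1 and Homer2 11 each, Shank3 9 and Dlg4 5. The inhibitory scaffold Gphn had 26.

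**Figure D1:**
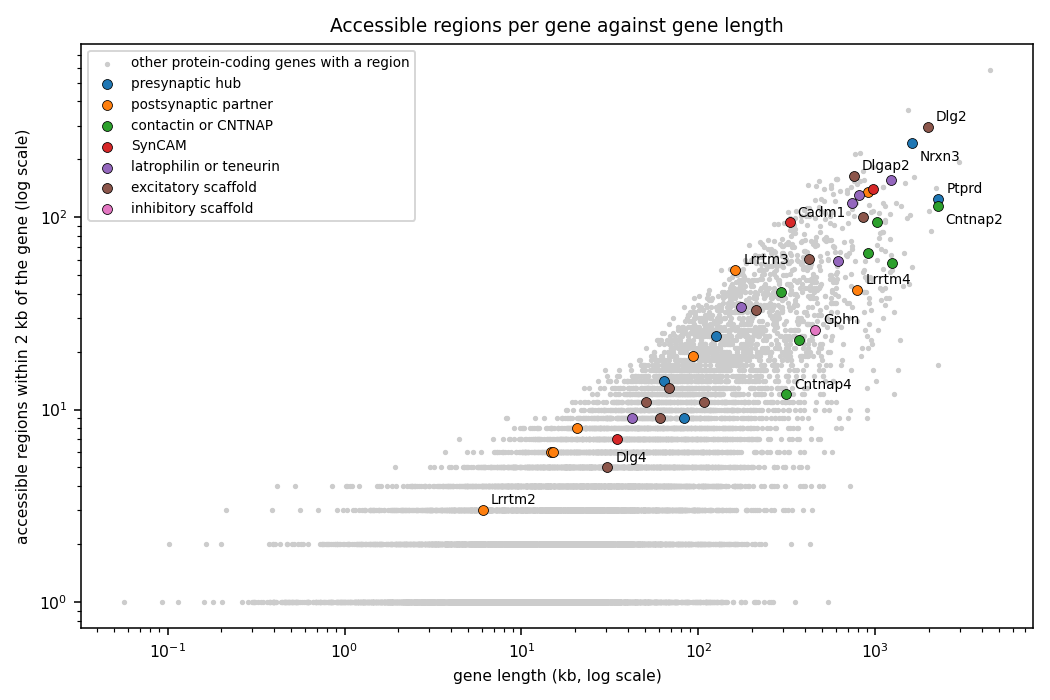
Number of kept accessible regions within 2 kb of each gene (y, log scale) against gene length in kb (x, log scale), with grey points for other protein-coding genes and coloured points for the 40 synaptic genes by role. The synaptic genes run from 3 regions for Lrrtm2 to 294 for Dlg2 and rise with length, and at lengths of 327 and 313 kb Cadm1 has 94 regions and Cntnap4 has 12.

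The strength of a region was compared as the fold enrichment of its highest summit over the library's background, which was divided by a factor per library so that the typical region had the same value in all libraries compared (scaled fold enrichment). Only regions called in every library of a comparison entered, which left 18.2% to 28.0% of the members' regions. A region that vanished in a group could therefore not be tested this way, and such regions are given further on as gained or lost calls. A difference was called at an adjusted p under 0.05 in limma over all regions tested.

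In diestrus females, more synaptic regions were lower than higher after cocaine, and the excitatory scaffolds Shank1, Shank2, Dlgap2 and Dlg2 and the inhibitory scaffold Gphn were among those that fell. Of 672 member regions tested, 3 were higher and 13 lower after cocaine (2.38%), against a background of 1.86% of 47696 regions tested, 0.870% higher and 0.992% lower. Of 193 excitatory scaffold regions tested, 8 were called, all lower. The median difference over the members was -0.06 on the log2 scale, against -0.01 over all regions. Shank2 codes for a scaffold of the postsynaptic density, and its intronic region at chr7:144207447-144208495 had scaled fold enrichments of 9.23, 9.61 and 10.1 in the DIE_Control libraries and 6.91, 2.54 and 2.88 in the DIE_Cocaine libraries. All cocaine libraries were below all controls, and the difference was -1.38 ± 0.25 (log2, SE, adjusted p = 0.0207), a fall of 2.61-fold. DIE_Cocaine library 1 lay between the controls and the other cocaine libraries.

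The intronic Gphn region at chr12:78350534-78351207 fell from 55.7, 104 and 95.7 to 57.1, 26.5 and 31.1 (log2 difference -1.18 ± 0.23, adjusted p = 0.0282). Here the groups overlapped, because DIE_Cocaine library 1 exceeded DIE_Control library 1. This region was among the strongest of the set: its median fold enrichment of 38.1 ranked 3 of the 469 member regions called in all libraries, whose median was 5.29. An intron of Dlgap2, a scaffold that links Dlg to Shank proteins, fell from 6.38, 7.29 and 9.50 to 3.56, 4.73 and 3.84 at chr8:14150503-14152281 (log2 difference -0.92 ± 0.19, adjusted p = 0.0300). In that region the groups did not overlap. Dlg2 fell in an intron at chr7:90539091-90540135, from 7.20, 7.29 and 8.24 to 4.57, 4.50 and 4.12 (log2 difference -0.78 ± 0.17, adjusted p = 0.0328), again without overlap. Wide merged regions at the starts of Ptprs (chr17:56458769-56478737) and Shank1 (chr7:44303103-44313412, which also spans Clec11a) fell by 0.78 and 0.86 on the log2 scale (adjusted p = 0.0315 and 0.0328).

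The 3 regions that rose in diestrus lay in adhesion genes, 2 of them in Lrrtm3. Regions of Lrrtm3 cannot be told apart from those of its host gene Ctnna3. Lrrtm3, a postsynaptic neurexin ligand, rose from 6.65, 6.52 and 7.51 to 10.7, 12.3 and 10.6 at chr10:64001340-64004563 (log2 difference 0.70 ± 0.16, adjusted p = 0.0357), and a second Lrrtm3 region was also called. Cntn4, a contactin, rose from 4.07, 3.31 and 3.34 to 5.59, 6.00 and 6.31 at chr6:106503885-106504461 (log2 difference 0.74 ± 0.18, adjusted p = 0.0395). In both regions every cocaine library exceeded every control. None of the 3 raised regions held the AP-1 motif, against 126 of 415 raised regions (30.4%) overall.

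The number of calls in diestrus rested on single libraries. It rose from 16 to 117 without DIE_Cocaine library 1. It fell to 0 without DIE_Cocaine library 2, DIE_Control library 2 or DIE_Control library 3, to 2 without DIE_Cocaine library 3 and to 5 without DIE_Control library 1. The Shank2 and Gphn calls held in 3 of these 6 fits, with adjusted p up to 0.273, and the other regions named for diestrus in 1 or 2.

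In proestrus, intronic regions of the adhesion genes Cntn4, Ptprd, Cntnap2, Cntnap5a and Lrrtm3 rose, and regions of Gphn and of the scaffolds Dlgap3, Dlg2 and Homer2 fell. Of 701 member regions tested, 8 were higher (1.14%) and 6 lower (0.856%), together 2.00%. Both shares were below those of all 48066 regions, of which 3.41% were called, 1.78% higher and 1.64% lower. Of 220 excitatory scaffold regions tested, 4 were called, all lower. Of 96 regions of contactin or Cntnap genes, 4 were called, all higher. The split depended on scaling, with 3 higher and 14 lower when libraries were centred within bins of GC content and 10 higher and 11 lower after quantile normalization. The PRO_Cocaine libraries also differed in base composition, since the median GC content of their called regions was 43.2% to 45.0%, against 45.3% to 46.0% in the PRO_Control libraries. Its part in the result was not tested beyond the centring.

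The Cntn4 intron named for diestrus rose in proestrus as well, from 2.73, 3.63 and 3.39 in the PRO_Control libraries to 6.56, 4.74 and 7.39 in the PRO_Cocaine libraries (log2 difference 0.93 ± 0.19, adjusted p = 0.0105). Both stages have controls of their own, and in each stage all cocaine libraries were above all controls. The Gphn intron fell again, from 46.2, 59.2 and 63.4 to 32.3, 33.4 and 37.9 (log2 difference -0.69 ± 0.15, adjusted p = 0.0149), here without overlap. Ptprd codes for a presynaptic receptor phosphatase that organizes synapses, and 3 of its 23 tested regions rose. Its AP-1 region at chr4:76385617-76386915 went from 3.30, 2.34 and 3.20 to 7.04, 4.12 and 5.81 (log2 difference 0.92 ± 0.20, adjusted p = 0.0133).

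The AP-1 region of Cntnap2, a neurexin-like protein of axons, rose from 4.32, 4.21 and 3.67 to 7.52, 5.67 and 7.39 at chr6:46717414-46718583 (adjusted p = 0.0205). In Cntnap5a, of the same family, the region at chr1:115826169-115828293 rose from 3.30, 3.04 and 2.83 to 5.04, 4.94 and 4.65 (adjusted p = 0.0263). Lrrtm3, inside its host Ctnna3, rose at chr10:64048556-64051329 from 6.25, 5.74 and 5.27 to 9.80, 7.52 and 9.40 (adjusted p = 0.0308). Thus 4 of the 8 raised member regions and none of the 6 lowered ones held the motif, beside 306 of 854 raised regions (35.8%) and 28 of 786 lowered regions (3.56%) overall. The Cntnap5a and Lrrtm3 regions missed the threshold when libraries were centred within GC bins, and across the 6 fits without 1 library their adjusted p in limma ran from 0.0046 to 0.144 and from 0.00018 to 0.159.

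Dlgap3, a scaffold gene with high expression in the striatum, fell in a wide region that includes a transcript start (chr4:127192571-127202132), from 9.32, 9.01 and 9.51 to 5.71, 4.84 and 6.97 (log2 difference -0.68 ± 0.16, adjusted p = 0.0210). Its strongest summit lay 4.77 kb from the nearest start, the region missed the threshold when libraries were centred within GC bins, and its adjusted p ran from 0.00277 to 0.115 without 1 library. A second Dlgap3 region, at chr4:127203096-127204992, fell from 4.21, 4.10 and 3.30 to 2.47, 2.58 and 2.43 (adjusted p = 0.0263). Homer2 fell from 6.94, 6.09 and 5.75 to 4.09, 2.99 and 4.23 at chr7:81648840-81650716 (adjusted p = 0.0243), and Dlg2 from 7.39, 8.31 and 7.72 to 4.85, 5.87 and 4.23 at chr7:92255941-92257240 (adjusted p = 0.0291). In each of these scaffold regions all cocaine libraries lay below all controls.

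Calls in proestrus also rested on single libraries. They numbered 95 without PRO_Cocaine library 2, 0 without PRO_Control library 3, 1 without PRO_Control library 1 or 2, 3 without PRO_Cocaine library 1 and 5 without PRO_Cocaine library 4. The regions named for proestrus held in 1 to 3 of these 6 fits. No member region differed in its cocaine response between diestrus and proestrus in limma (0 of 469 tested, and 0 after quantile normalization or GC centring). At the same adjusted p under 0.05, 0.00543% of 36847 regions tested were called. The largest difference among members was at the Shank2 intron lowered in diestrus, at -1.53 ± 0.35 on the log2 scale (adjusted p = 0.362), where PRO_Control libraries were at 2.83, 5.14 and 5.21 and PRO_Cocaine libraries at 4.48, 5.59 and 4.21. Without DIE_Cocaine library 1, 2 member regions were called, and that Shank2 region was among them (adjusted p from 0.000816 to 0.837 over the fits without 1 library).

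In males, scaffold and adhesion genes moved in both directions after cocaine. Of 544 member regions tested, 41 were higher and 61 lower (18.8%), against 16.7% of 43595 regions, 7.26% higher and 9.48% lower. Excitatory scaffolds had 25 regions higher and 16 lower of 185 tested. Dlg2 had 13 regions higher and 1 lower of 60 tested, and Shank2 and Cadm1 each had 5 higher and 0 lower. Dlgap1, which codes for a scaffold that binds Dlg proteins, had 1 higher and 10 lower of 37. Ptprd had 6 lower, and Nrxn3, Nlgn1 and Cadm2 each had 5 lower, with 0 higher. These directions held after quantile normalization and after centring within GC bins, except that centring added 2 higher regions of Nrxn3. The AP-1 motif was in 12 of the 61 lowered member regions (19.7%) and in 5 of the 41 raised ones (12.2%). Over all regions it was in 13.9% of lowered and 9.48% of raised ones. The lowered Flrt2 region named below held it.

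Nrxn3, a neurexin, fell in an intron at chr12:89375956-89377673 from 8.95, 8.18 and 9.16 in the MALE_Control libraries to 3.03 and 3.63 in the MALE_Cocaine libraries (log2 difference -1.40 ± 0.18, adjusted p = 5.69e-07), a fall of 2.64-fold. The Gphn intron that fell in females rose in males, from 32.6, 24.7 and 28.4 to 47.6 and 45.4 (log2 difference 0.71 ± 0.10, adjusted p = 8.72e-06). Another intron of Shank2, at chr7:144381277-144382280, rose from 3.71, 2.52 and 2.79 to 6.45 and 8.39 (log2 difference 1.31 ± 0.20, adjusted p = 1.51e-05). Cadm1, which codes for SynCAM1, rose from 5.57, 4.28 and 5.08 to 9.73 and 11.3 at chr9:47636032-47638251 (log2 difference 1.09 ± 0.17, adjusted p = 2.67e-05). None of these 4 regions showed overlap between the groups.

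Falls of similar size occurred in Ptprd (chr4:77647243-77650508, log2 difference -0.96 ± 0.15), in Tenm4 (chr7:96574908-96575849, -0.90 ± 0.15), in the latrophilin ligand Flrt2 (chr12:95744951-95747710, -1.03 ± 0.17) and in a second Nrxn3 intron (chr12:90141656-90144760, -1.05 ± 0.17). Dlgap1 fell at chr17:70629739-70630705 from 8.62, 8.31 and 9.75 to 3.67 and 5.03, and at chr17:70470834-70472616 from 9.71, 9.94 and 7.66 to 4.30 and 4.89. All 10 regions named for males kept their call in each of the 5 fits without 1 library, although 2 of these fits leave 1 MALE_Cocaine library, which is then assumed to vary like the controls. The count of member calls was 34 without either MALE_Cocaine library and 48 without MALE_Control library 3. It was 52, with 22 higher and 30 lower, when all 17 libraries shared 1 fit.

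**Figure D2:**
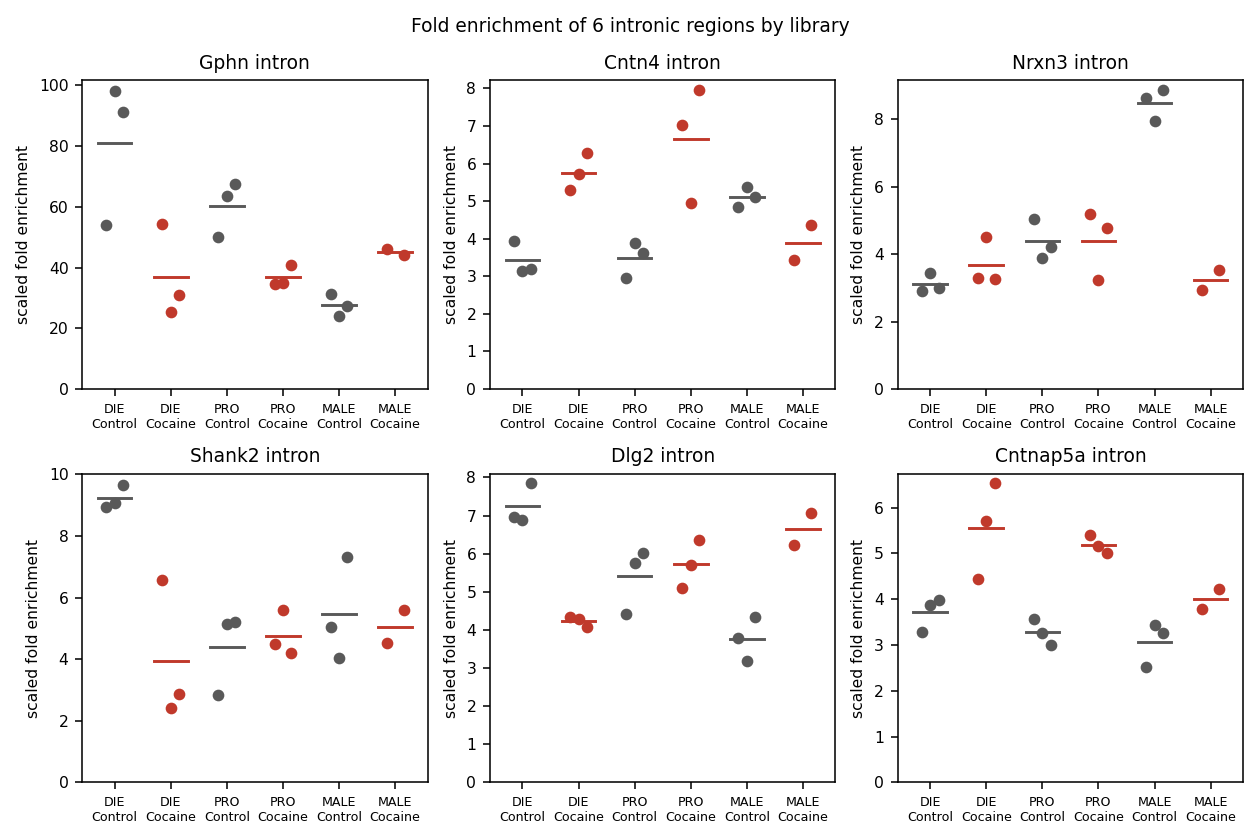
Scaled fold enrichment (y, linear from 0) of 6 intronic regions in each of the 17 libraries (points) with group means (lines), with controls in grey and cocaine in red and all libraries scaled together. Gphn was lower after cocaine in both female stages and higher in males, Cntn4 was higher in both female stages, Nrxn3 stood highest in male controls, Shank2 and Dlg2 in diestrus controls, and Cntnap5a was higher after cocaine in each stratum.

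The cocaine response of the synaptic regions differed between males and females in both directions. The interaction, taken as the change in males minus the mean change of the 2 female stages, was called in 90 of 469 member regions (54 higher and 36 lower, 19.2%), against 18.1% of 36847 regions, 9.11% higher and 9.02% lower. Excitatory scaffolds accounted for 32 of the 54 higher and 6 of the 36 lower calls, and Dlg2 alone for 17 and 0. Contactin and Cntnap genes had 0 higher and 9 lower. Among the lower calls, 9 of 36 (25.0%) held the AP-1 motif, beside 4 of 54 (7.41%) higher calls. Over all regions the motif was in 18.7% of lower and 6.28% of higher calls. The count was 33 and 36 without MALE_Cocaine library 1 or 2 and 52 without MALE_Control library 2.

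At the Gphn intron the interaction was 1.66 ± 0.25 (log2, adjusted p = 2.82e-05). With all libraries scaled together, the change was -1.17 in diestrus, -0.71 in proestrus and 0.72 in males. The Dlg2 intron at chr7:90539091-90540135 went from 6.97, 6.89 and 7.87 to 4.34, 4.28 and 4.09 in diestrus, from 4.43, 5.77 and 6.02 to 5.09, 5.70 and 6.37 in proestrus and from 3.78, 3.18 and 4.33 to 6.23 and 7.08 in males (interaction 1.17 ± 0.22, adjusted p = 0.000763). Diestrus controls were thus highest and male controls lowest before cocaine, and after cocaine the order of diestrus and males was turned. The interaction was of opposite sign at Cntn4 (chr6:106503885-106504461, -1.24 ± 0.24) and at the AP-1 region of Ptprd (-1.28 ± 0.25), where male values went from 6.20, 6.24 and 5.97 to 3.79 and 4.22. Every one of these 4 interactions kept its call in all 17 fits without 1 library.

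Fitted over all strata, 60 of 469 member regions differed with cocaine, 18 higher and 42 lower (12.8%), against 14% of 36847 regions, 6.36% higher and 7.64% lower. Of the excitatory scaffold regions, 3 were higher and 16 lower of 149 tested. Dlgap2 had 7 lower of 31, Dlgap3 3 lower of 5 and Adgrl1, a latrophilin, 3 lower of 3, each with 0 higher, whereas Lrrtm3 and Cntnap5a had 3 higher each and 0 lower. At the Dlgap1 intron chr17:70470834-70472616 the change was -0.45 in diestrus, -0.45 in proestrus and -0.98 in males (joint log2 difference -0.62 ± 0.10, adjusted p = 0.000162). Every cocaine library of diestrus and of males lay below its controls there, while PRO_Cocaine library 1 at 5.80 exceeded the lowest PRO_Control library at 5.71.

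Cntnap5a rose at chr1:115826169-115828293 by 0.57, 0.66 and 0.39 on the log2 scale in diestrus, proestrus and males (joint 0.54 ± 0.10, adjusted p = 0.000723). Its second AP-1 region, at chr1:115745148-115746647, rose by 0.45, 0.53 and 0.55 (joint 0.51 ± 0.11, adjusted p = 0.00221). A Cntn5 intron at chr9:10268828-10270231 fell by 0.39, 0.30 and 0.55 on that scale (joint -0.41 ± 0.08, adjusted p = 0.000476). Of the 18 raised regions, 8 (44.4%) held the AP-1 motif, against 590 of 2343 raised regions (25.2%) overall and 65 of the 469 member regions tested (13.9%). The number of calls was 39 without MALE_Cocaine library 1 and 41 to 88 in the other 16 fits without 1 library. It was 39 when peaks needed a −log10 q of 5 or more, 28 with a replicate block and 105 with DIE_Cocaine library 1 and PRO_Cocaine library 2 both left out.

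Before cocaine, the share of member regions with stronger signal in diestrus than in proestrus controls was near that of all regions. Of 720 member regions tested, 19 were higher in diestrus (2.64%) and 2 lower (0.278%), together 2.92%. Over all 50342 regions 4.06% were called, 2.62% higher and 1.44% lower. Tenm4 had 8 higher of 41, and Shank2 and Dlgap2 had 3 each. The Shank2 intron at chr7:144207447-144208495, which cocaine lowered in diestrus, was at 8.60, 8.86 and 9.40 in diestrus controls and 2.70, 4.96 and 5.08 in proestrus controls (log2 difference 1.13 ± 0.17, adjusted p = 1.44e-05). This comparison and the cocaine comparison in diestrus share the DIE_Control libraries. Tenm4 was higher at chr7:96772877-96774532, with 8.48, 8.35 and 7.27 against 4.10, 3.996 and 4.20 (log2 difference 0.97 ± 0.15, adjusted p = 2.93e-05). At both regions the call held in all 6 fits without 1 library.

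The number of stage calls was 36 without DIE_Control library 1, 4 without DIE_Control library 3 and 9 or 10 without any 1 of the PRO_Control libraries. The 8 Tenm4 and 3 Shank2 calls were all higher in diestrus under quantile normalization and GC centring too, whereas for Dlgap2 quantile normalization gave 1 higher and 1 lower.

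Male and female controls differed at 197 synaptic regions, a share near that of all regions. Of 620 member regions tested, 81 were higher and 116 lower in males (31.8%), against 31.6% of 45488 regions, 16.4% higher and 15.3% lower. Excitatory scaffolds had 21 higher and 63 lower of 203, and postsynaptic partners 13 higher and 2 lower of 63. Dlg2, with the most regions tested, had 28 of 66 lower and 4 higher in males. Dlgap2 had 14 lower and 2 higher, Tenm4 14 lower and 2 higher of 29 and Shank2 6 lower and 1 higher. The opposite pattern was seen in Dlgap1 with 13 higher and 2 lower, in Cntn4 with 9 higher and 0 lower of 17 and in Ptprd with 5 higher and 0 lower. Quantile normalization and GC centring kept each of these directions. The MALE_Control libraries enter both this comparison and the cocaine comparison in males, so the counts of the 2 comparisons are not independent.

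A Cntn4 intron with an AP-1 motif at chr6:105939258-105941198 was at 10.0, 10.8 and 7.82 in male controls and at 2.38 to 3.37 in the 6 female controls (log2 difference 1.67 ± 0.15, adjusted p = 2.15e-11), a 3.18-fold difference without overlap. The Gphn intron was lower in male controls, at 32.3, 24.7 and 28.2 against 50.7 to 101 in female controls (log2 difference -1.31 ± 0.12, adjusted p = 7.62e-11). Nrxn3 at chr12:89375956-89377673 was higher, at 8.85, 8.19 and 9.10 against 2.97 to 5.12 (log2 difference 1.21 ± 0.14, adjusted p = 1.17e-08). Ptprd at chr4:77647243-77650508 was at 13.5, 10.6 and 11.3 in males and 4.63 to 5.66 in females. Tenm4 differed in opposite directions at neighbouring introns, lower in males at chr7:96480616-96482807 (log2 difference -0.98 ± 0.12) and higher at chr7:96574908-96575849 (0.99 ± 0.13). The calls of these regions held in all 9 fits without 1 library, and the total ranged from 132 to 208 calls.

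**Figure D3:**
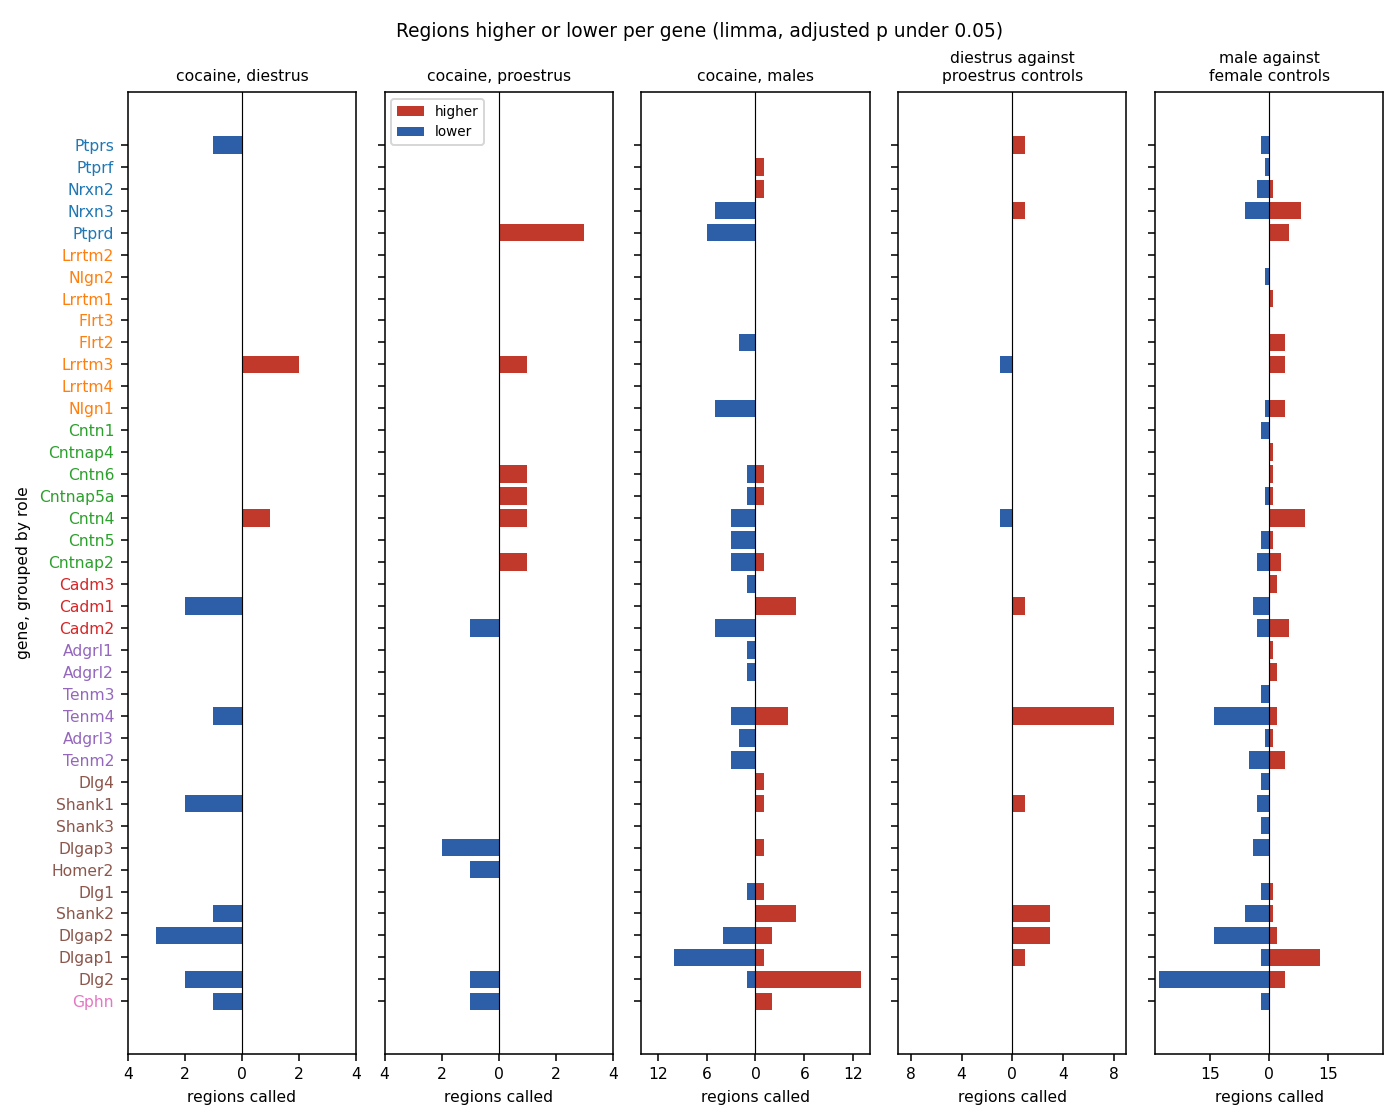
Number of regions called higher (red, to the right) or lower (blue, to the left) for each of the 40 genes in 5 comparisons, with a scale of its own for each panel and names coloured by role. Dlg2, which has the most regions, shows 13 regions higher in males after cocaine and 28 lower in male than in female controls, Dlgap1 shows the opposite sides, and Tenm4 leads the regions higher in diestrus controls.

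As a readout that does not need a region in every library, the share of each library's peaks that fell in a gene was compared between cocaine and control within strata. A stratified two-sided exact permutation test over 4000 assignments was run for 38 of the 40 genes, since Nlgn2 and Lrrtm2 averaged under 5 peaks. After adjustment over 4953 genes, 4 of the 38 members differed, a share near the background of 11.1%. The contactin gene Cntn6 gained 10.5 peaks per 100,000 on average (exact permutation p = 0.00525, adjusted 0.0482). Its share was 31.9 and 33.1 in the MALE_Cocaine libraries against 5.33, 9.65 and 8.07 in the MALE_Control libraries, while the average difference was 0.32 in diestrus and 6.27 in proestrus. Lrrtm3, inside its host Ctnna3, gained 10.4 (exact permutation p = 0.0055, adjusted 0.0494). Its average gains were 18.4 in diestrus, 7.89 in proestrus and 5.01 in males.

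Dlgap2 lost 33.6 peaks per 100,000 on average (exact permutation p = 0.005, adjusted 0.0477), and Dlgap3 lost 5.91 (p = 0.00425, adjusted 0.0439, same exact test). The fall of Dlgap2 was 22.6 in diestrus, 59.4 in proestrus and 19.0 in males. In proestrus its share was 135, 155 and 161 in controls and 81.0, 103 and 89.5 after cocaine, without overlap. Dlg2 held 95 to 435 peaks per library and went from 204, 257 and 297 to 219.7, 132 and 95.2 in diestrus and from 212, 230.1 and 227 to 137, 193 and 146 in proestrus. In males its share was 126, 108 and 116 in controls and 132 and 135 after cocaine, and over the strata its difference of -50.3 did not pass (adjusted exact permutation p = 0.111). Leaving out 1 library gave 0 to 6 member calls, the 4 genes lost their call in 13 to 15 of 17 such fits, and requiring −log10 q of at least 5 or an equal number of peaks per library left 1.

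Across the 40 genes the change in peak share in proestrus followed base composition, with a Spearman rho of -0.72 between a gene's GC content and its log2 ratio of cocaine to control shares. The rho was -0.09 in diestrus and 0.10 in males. The genes share the same libraries, so this is a description. These values describe whole genes, and the low GC content of single regions gained in males is given further on. PRO_Cocaine libraries 4 and 1 had the lowest median GC content of called regions of all 17 libraries, at 43.2% and 43.7%.

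**Figure D4:**
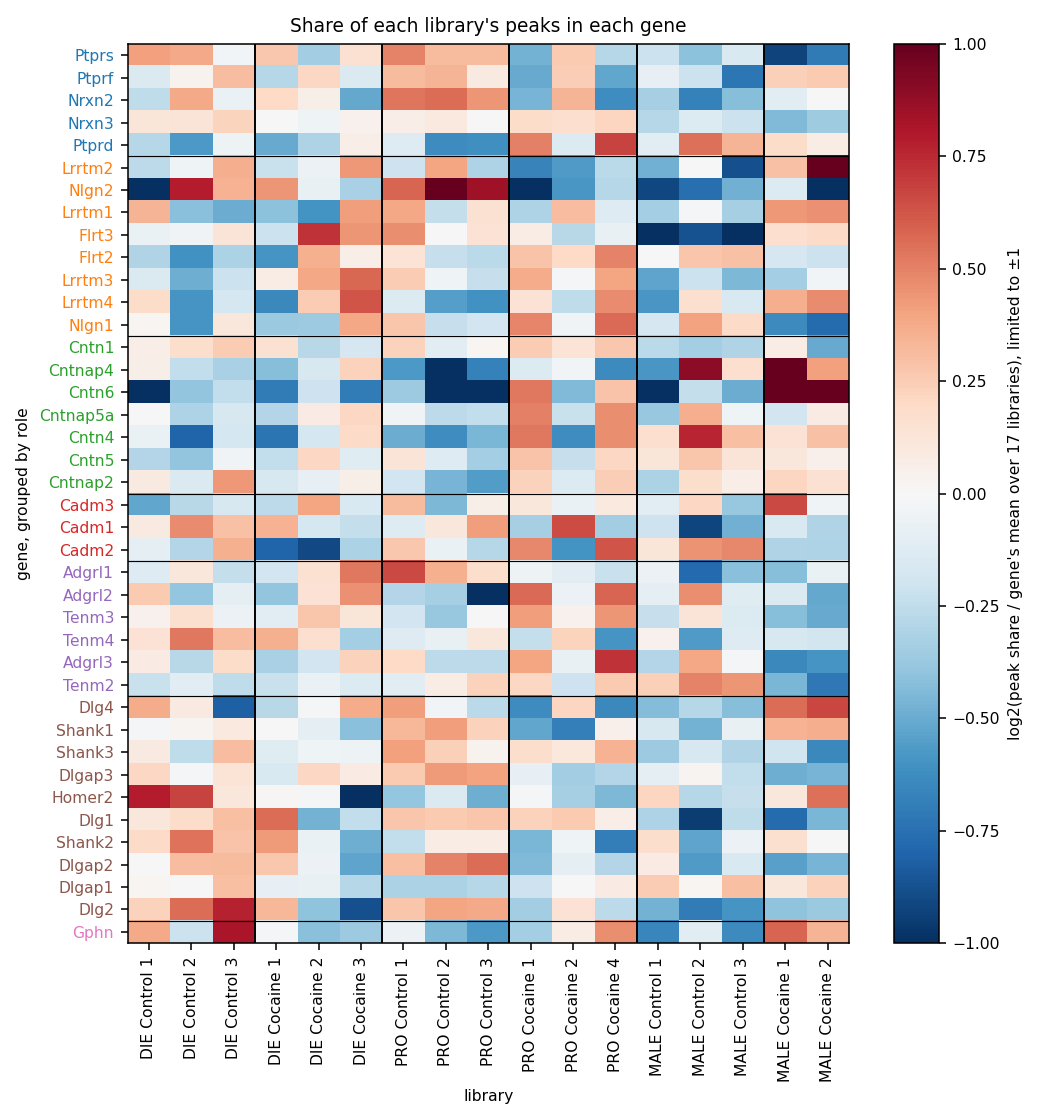
Share of each library's peaks that fell in each of the 40 genes, as log2 of the share over the gene's mean (colour, limited to ±1), with genes in rows coloured by role and libraries in columns split by group. Dlg2 is at 204 to 297 peaks per 100,000 in the female controls, at 219.7 in DIE_Cocaine library 1 and lowest in DIE_Cocaine library 3 at 95.2, and Cntn6 is highest in the MALE_Cocaine libraries at 31.9 and 33.1.

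Regions that appeared or vanished outright were intragenic with few exceptions, as were 2480 of all 2571 member regions. Of the 76 promoter regions, 59 were called in all 17 libraries and so could be neither gained nor lost. A region was counted as gained when all cocaine libraries of a stratum and none of its controls had a peak there, and as lost in the opposite case. In diestrus 19 member regions were gained and 50 lost, against 1.16% and 1.26% of the 147420 kept regions. This direction turned at a −log10 q of 5 or more, with 18 gained and 14 lost, and with an equal number of strongest peaks per library, with 26 and 21, and the counts were 24 and 26 where a peak had to cover at least 50% of the region. In proestrus 50 were gained and 24 lost, against 2.45% and 1.64%. In males 34 were gained and 384 lost, against 1.66% and 16.8%, beside the small number of peaks in the MALE_Cocaine libraries, and with an equal number of strongest peaks per library the male counts were 71 and 119. The only promoter regions among all of these were 2 lost in males. The regions gained in males were poor in GC, with a median of 29.8% for members and 29.7% over all such regions. The median was 39.5% for the members' intragenic regions and 44.4% for all kept regions. Regions lost in males had medians of 41.1% for members and 44.3% over all. Cntn6, Cntn4 and Cntnap2 held 5 of the male member gains each. The part of base composition in the male gains was not tested. With 1 library left out every count rose, since fewer libraries had to match, and losses in diestrus reached 181 without DIE_Cocaine library 1 and gains in proestrus 168 without PRO_Cocaine library 2.

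Gains in proestrus made up 1.94% of member regions, against 2.45% of all kept regions, and were spread over 20 genes. There were 5 among the 243 regions of Nrxn3 and 4 each in Nlgn1, Cntnap2, Cntnap5a, Tenm2, Adgrl3, Ptprd and Cadm2. The AP-1 motif was found in 11 of these 50 regions (22.0%), beside 17.3% of all regions gained in proestrus. The Lrrtm4 region at chr6:80619504-80619934, whose motif is printed above, had deposited fold enrichments of 4.91, 2.78 and 4.82 in the PRO_Cocaine libraries and was also called in all 3 DIE_Cocaine libraries (3.68, 4.78 and 3.22) and in 1 library each of DIE_Control, MALE_Control and MALE_Cocaine. The Cntn1 region at chr15:92317784-92318773, at 3.51, 3.53 and 1.99 after cocaine in proestrus, was called in all 6 diestrus libraries and in 1 MALE_Cocaine library. Both regions were thus open in other groups, controls included.

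In diestrus, 3 of the 19 gains (15.8%) held the AP-1 motif, beside 21.7% of all regions gained there, and lay in Cntnap2 (chr6:46191614-46192146), Cadm2 (chr16:67409142-67409758) and Tenm3 (chr8:48541684-48542187). The Cntnap2 region had deposited fold enrichments of 4.63, 5.16 and 3.22 in the DIE_Cocaine libraries and was called in 3 other libraries. Losses in diestrus were most numerous in Dlg2 with 9 of 294 regions, followed by Cadm2 with 5 of 140 and Dlgap2 with 4 of 164. Those in proestrus were most numerous in Dlg2 and Dlgap2 with 4 each. Over all kept regions 1.26% were lost in diestrus and 1.64% in proestrus. A single region was lost in both female stages, an intron of Dlg2 at chr7:92369585-92371281. It was called in all 3 DIE_Control libraries at 2.58, 2.57 and 2.39 and in all 3 PRO_Control libraries at 3.06, 2.44 and 2.46, in no female cocaine library and in 1 MALE_Control library. Among the members, 0 regions were gained in both female stages. Over all kept regions, 298 were gained in both, 17.4% of the 1715 diestrus and 8.24% of the 3617 proestrus gains, and 50 were lost in both, 2.68% of the 1864 diestrus and 2.07% of the 2414 proestrus losses.

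The strongest male losses lay in introns. Nrxn3 at chr12:89652881-89653707 had fold enrichments of 7.90, 8.95 and 6.70 in the MALE_Control libraries and no call in MALE_Cocaine, and only 2 female libraries had a peak there. At chr1:116192133-116192748 Cntnap5a was at 7.52, 5.65 and 7.35 in male controls and was called in 1 female library. The Nlgn1 region at chr3:26316723-26318180, in the gene of a postsynaptic neurexin partner, was at 7.01, 6.06 and 8.23 in male controls and was called in 10 of 12 female libraries. Male losses by gene numbered 44 of 156 regions in Tenm2, 38 of 243 in Nrxn3 and 27 of 140 in Cadm2. Over all kept regions 16.8% were lost in males.

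Other genes of the synapse were taken as a list of 43 further adhesion molecules, receptors and scaffolds with 1044 regions. In diestrus 2 of 291 tested regions were higher and 3 lower (1.72%, against 1.86% of all regions). In proestrus 6 and 9 of 294 were called (5.10%, against 3.41% of all regions and 2.00% of member regions). For males the counts were 19 and 31 of 256 (19.5%, against 16.7%). Male against female controls differed at 47 higher and 42 lower regions of 261 (34.1%, against 31.6%). A promoter region was called in all 17 libraries for 38 of the 43 genes.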

How the data were processed

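ATAC-seq peak files of 17 libraries were used. The authors removed adapters, mapped reads to mm10 (BWA-MEM) and ran MACS2 library by library. Its version and options are not given in the sources used here. The deposited columns hold a score, a fold enrichment (ratio) of the summit over background, and −log10 p and q values, none normalized between libraries. The authors' later counting and DESeq2 tests used read counts, which are not analysed here. All deposited peaks on chromosomes 1 to 19 and X were used, without a blacklist.

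Gene bodies and transcript starts came from GENCODE M21 (mm10). Log2 fold enrichments of the highest peak per region, with no pseudocount, were centred on the median region and tested with limma 3.58.1 (with an intensity trend) in R 4.3.3, with Benjamini-Hochberg adjustment over all regions tested. Each stratum was fitted alone, and comparisons over strata used all libraries. Replicates are separate pools of 3 animals. Peaks per gene were tested with permutations within strata in Python 3.11.15. The fit was tested on simulated data for each stratum. For diestrus, simulated on 47696 regions, it recovered 54% of regions changed by 1 log2 unit and 93% of those changed by 2. For proestrus (48066 regions) the shares were 64% and 97%, and for males (43595 regions) 42% and 90%. The 10 regions of lowest p per comparison among calls were named (5 where fewer than 5 were called), plus the 5 strongest gained and lost calls per stratum and the 5 genes of lowest p in each direction. Alternatives were quantile normalization, centring within 10 GC bins, a stricter peak threshold, regions called in 2 libraries per group, 1 joint fit, a replicate block and leaving out each library. Depth was known only as background pileup, 6.26 to 9.55 reads per library. Members and lists were chosen with earlier results of these data known.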

Additional observations from a re-analysis of the deposited data

Results flagged for a closer look

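The cocaine response differed between males and females at 90 of 469 member regions by a test of the difference itself (limma interaction, change in males minus the mean change of both female stages, log2), beside 18.1% of all regions tested. The 10 regions of lowest p are given, and higher or lower refers to the change with cocaine, not to the level. Higher in males were Gphn (chr12:78350534-78351207, 1.66), Shank2 (chr7:144381277-144382280, 1.32), Dlgap2 (chr8:14429652-14431513, 1.24), Cadm1 (chr9:47636032-47638251, 1.19), Dlg2 (chr7:90539091-90540135, 1.17) and the Nrxn2 promoter region, which also spans Rasgrp2 (chr19:6412472-6424227, 1.00). Lower in males were Nrxn3 (chr12:89375956-89377673, -1.50), Flrt2 (chr12:95744951-95747710, -1.35), Ptprd (chr4:76385617-76386915, -1.28) and Cntn4 (chr6:106503885-106504461, -1.24). Their adjusted p ranged from 2.82e-05 for Gphn to 0.0015 for Shank2, and all 10 held in each of the 17 fits without 1 library, 2 of which leave 1 MALE_Cocaine library. At Shank2, Cadm1 and Nrxn3 the response was mainly in males, with changes of 1.32, 1.09 and -1.39 there, against -0.25 to 0.23 in the female stages. The MALE_Cocaine group had 2 libraries and the fewest peaks, and the part of this in the differences was not tested.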

How the results depend on the processing

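For diestrus 16 calls became 10 with regions called in 2 libraries of every group, 49 in 1 fit over all 17 libraries (10 higher, 39 lower) and 0 with a replicate block, with 0 to 117 without 1 library. For proestrus 14 became 8 when peaks needed a −log10 q of 5 or more and 9 with the block, with 0 to 95 without 1 library, and its split of 8 higher and 6 lower was 3 and 14 with centring within GC bins. For males 102 became 52 in the joint fit and 66 with the block, with 34 to 111 without 1 library. Over all strata 60 became 39 at the stricter q and 28 with the block (39 to 88 without 1 library), and the males-minus-females count of 90 became 20 with the block (33 to 127). With DIE_Cocaine 1 and PRO_Cocaine 2 both left out, an alternative chosen after seeing the data for the libraries whose removal raised the calls most, these were 105 and 167, and diestrus minus proestrus gave 11 in place of 0 (0 to 2 without 1 library). Whether the replicate numbers pair the samples could not be decided, because each group has only 2 or 3 libraries. Same-numbered libraries correlated at -0.29, 0.02 and -0.14 (diestrus), 0.20 and 0.12 (proestrus) and 0.02 in each male pair. Differently numbered libraries of a stratum correlated at -0.27 to 0.30. Diestrus against proestrus controls gave 4 to 36 calls and male against female controls 132 to 208 without 1 library. Losses in diestrus (50) were 14 at the stricter q, 21 with equal peak numbers and 26 where a peak had to cover at least 50% of the region, beside gains (19) of 18, 26 and 24, so the direction turned under the first 2. Male gains (34) were 9, 71 and 21 in that order and male losses (384) 119 with equal numbers, and proestrus gains and losses (50 and 24) were 33 and 12 at the stricter q. Without 1 library, gains ran over 26 to 47, 60 to 168 and 40 to 75 and losses over 56 to 181, 37 to 75 and 430 to 530 in diestrus, proestrus and males. Genes with a changed peak share (4) were 1 at the stricter q, 1 with equal numbers and 0 to 6 without 1 library. Cadm3, not called, turned from 2.32 to -0.67 when peaks were not divided by the total. The causes were not tested. Of the single regions and genes named, 386 values outside the fits without 1 library stayed on their side of the threshold, 28 lost and 8 gained the call. Depth limits weak regions, whose summits rest on about 26 to 31 reads.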
